A study of Drosophila melanogaster with 8 samples.

Results

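The genes described here are 10 components of the Toll and Imd pathways, the routes by which Drosophila cells activate NF-κB transcription factors. They are the Toll receptor gene Tl, the adaptor and kinase genes tub and pll, the inhibitor gene cact, the NF-κB factor genes dl, Dif and Rel, and the Imd pathway genes PGRP-LC, imd and key. Members were found as the probe sets annotated with exactly 1 gene symbol equal to one of these names. Of the 10 listed genes 9 had such a probe set, with 11 probe sets in all, among 10844 genes and 13966 probe sets of the array other than its controls. PGRP-LC, the main transmembrane receptor of the Imd pathway, had none and is not analysed here. Only 7 of the 9 genes, with 8 probe sets, were bright enough to be tested, against 6865 genes tested on the whole array. The genes dl and Tl and the dimmer of 2 imd probe sets lay under the filter on low values, a mean log2 value that corresponds to a signal of 61.5.

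The samples were cultures of L57, a Drosophila melanogaster cell line, grown in a medium with fetal bovine serum. Biotin-labelled RNA was hybridized to 8 Affymetrix arrays in 4 groups of 2: the solvent DMSO as control, and exposures of 3, 6 and 12 h to juvenile hormone III (JH III) at 1 µM. The hormone is a sesquiterpenoid that holds back metamorphosis, and the series set out to find genes that respond to it through a response element named DR4. The study lists the control as 0 h, so no DMSO culture was matched in time to an exposure, and effects of time in culture and of the hormone cannot be told apart. The labels do not say that replicates were separate cultures, so p-values measure the spread between these arrays, which may be technical. One DMSO array carries a source label that mentions embryos, although its growth protocol describes L57 cells.

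Signalling through Toll begins outside the cell, where a protease cascade cleaves the cytokine Spätzle, the ligand of the receptor. Inside the cell the adaptors MyD88 and Tube and the kinase Pelle lead to degradation of Cactus, an IκB protein, which frees Dorsal and Dif to enter the nucleus. In the Imd pathway, peptidoglycan receptors act through the adaptor Imd and an IκB kinase complex that contains the Kenny protein (key), and Relish (Rel) is then cut so that its NF-κB part can enter the nucleus. Both routes are best known for inducing antimicrobial peptides in the fat body and in hemocytes, the blood cells of the fly. Most of this control acts on proteins, by cleavage, phosphorylation and degradation, which an expression array does not measure.

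Relish was the one member whose transcript differed between JH III and DMSO in the fit of all arrays. Its signal was lower on every JH III array than on either control array, and the difference passed the test at 12 h, with a log2 change of −0.65. That call was lost without DMSO replicate 1, DMSO replicate 2 or 12 h replicate 2 (adjusted p = 0.107, 0.116 and 0.0571). With quantile normalization the 12 h call of Rel was lost as well (adjusted p = 0.171). No other member passed against DMSO at any time. At 3 h, 0 of 7 genes passed at an adjusted p under 0.05 in limma, while 18.7% of all tested genes did, 9.91% higher and 8.8% lower. At 6 h the count was again 0 of 7, against 13.4% of all genes, 6.74% higher and 6.7% lower. At 12 h the count was 1 of 7, Rel, against 6.05% of all genes, 3.28% higher and 2.77% lower. With an unadjusted p under 0.05, limma counted 1, 0 and 1 member at the 3 times, where 32.2%, 28.5% and 22.3% of all genes reached that level. With 7 members these counts are a description and are not read as a property of the group. The median log2 change over the 7 genes was −0.13 at 3 h, −0.01 at 6 h and −0.17 at 12 h, where the medians over all genes were 0.01, 0.04 and −0.01.

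**Figure D1:**
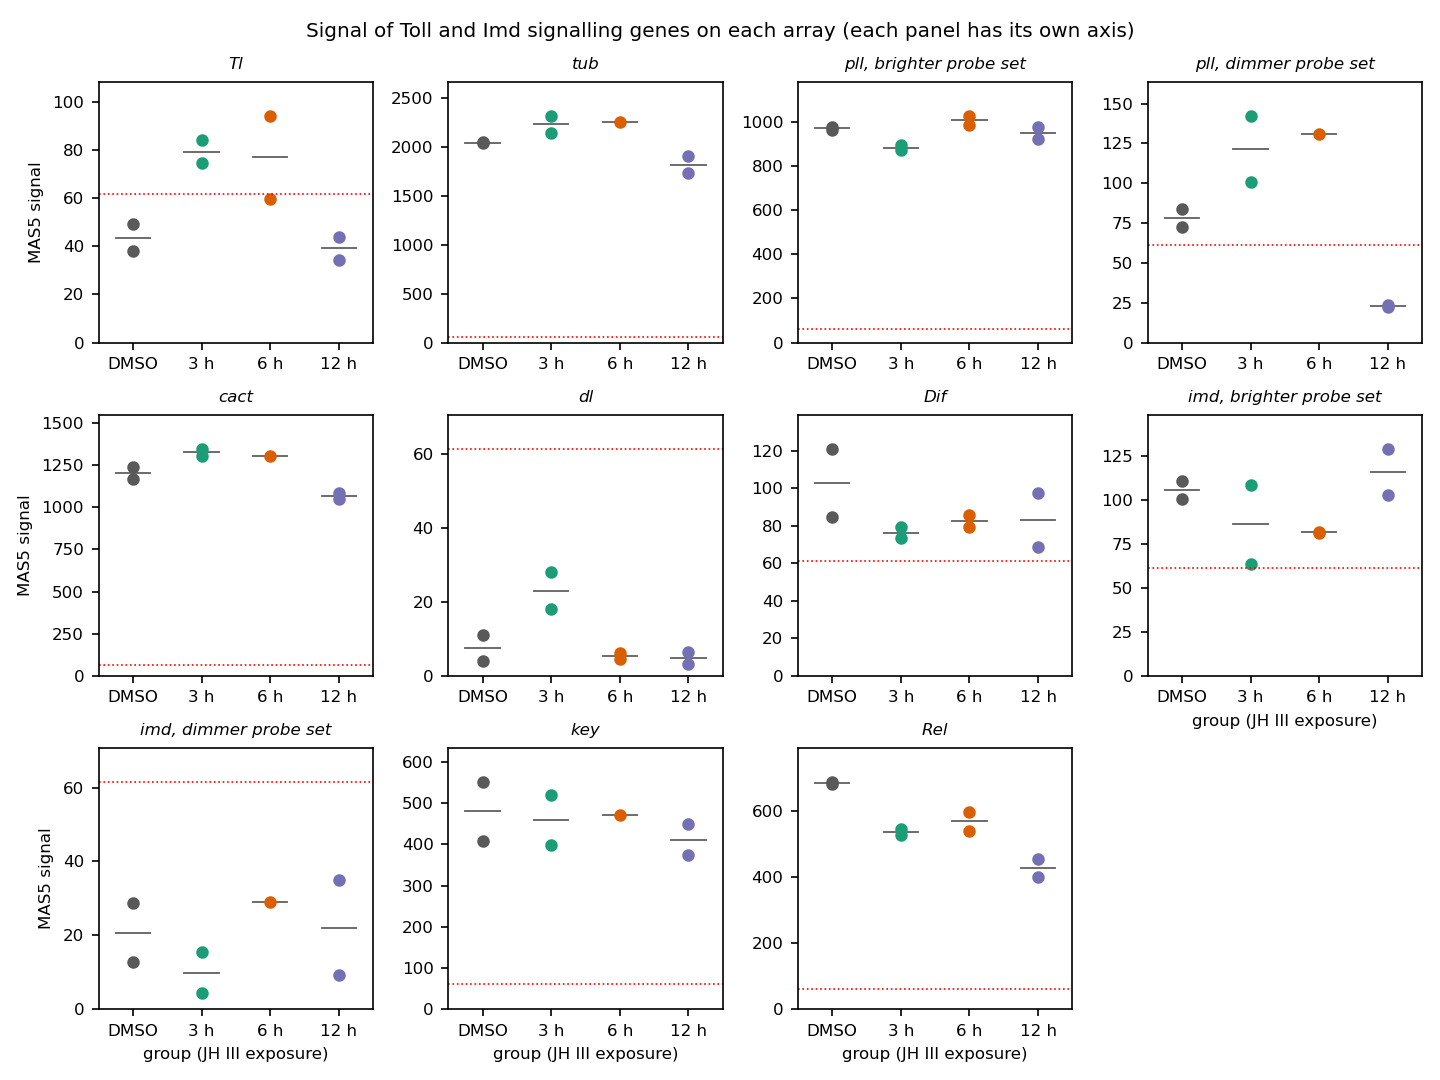
MAS5 signal of every member probe set on each array, by group, on a linear axis that starts at 0 and differs between panels. Points are arrays, short lines are group means, the dotted line is the signal at the filter of 61.5, and groups with 1 point at 6 h have 1 readable array. Rel lies lower in all JH III groups than in DMSO, while the dl points lie below the dotted line on every array.

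The receptor gene Tl gave a dim signal in these cells. Its signals were 49.1 and 37.9 in DMSO, 83.9 and 74.5 at 3 h, 94.2 and 59.5 at 6 h, then 44.0 and 34.5 at 12 h. The 3 h and 6 h arrays all lay above both DMSO arrays, and the 12 h arrays overlapped the controls. Since its mean was under the filter, Tl was tested only in the fit with no filter, where its log2 change was 0.61 at 3 h (adjusted p = 0.299), 0.56 at 6 h (adjusted p = 0.376) and −0.09 at 12 h (adjusted p = 0.933). None of these passed the test.

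Tube, the adaptor that joins MyD88 to the Pelle kinase, gave signals of 2049.8 and 2043 in DMSO. They were 2147 and 2324 at 3 h, 2256 on the 1 readable array at 6 h, then 1735 and 1908 at 12 h. All readable 3 h and 6 h arrays lay above the controls and both 12 h arrays below them, without overlap. The log2 change against DMSO was 0.12 ± 0.08 (SE, 95% CI −0.06 to 0.31) at 3 h, 0.14 ± 0.10 at 6 h and −0.17 ± 0.08 (95% CI −0.36 to 0.02) at 12 h. None of these passed, with adjusted p of 0.340, 0.414 and 0.278.

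The inhibitor gene cact, whose product holds Dorsal and Dif in the cytoplasm and whose transcription is itself a known target of the pathway, also lay above the controls at the early times and below them at 12 h. Its signals were 1238 and 1168 in DMSO, 1303 and 1346 at 3 h, 1303 on the 1 readable array at 6 h, then 1049.5 and 1085 at 12 h. None of the readable JH III arrays fell between the 2 controls. The log2 changes against DMSO were 0.14 ± 0.08 (SE, 95% CI −0.06 to 0.33, adjusted p = 0.307) at 3 h, 0.11 ± 0.10 (adjusted p = 0.529) at 6 h and −0.17 ± 0.08 (95% CI −0.36 to 0.02, adjusted p = 0.289) at 12 h. Arrays centred on their medians turned the 3 h values of cact and tub to −0.02 and −0.04 and the 6 h values to −0.02 and 0.0048, so the direction of both genes at 3 h and of cact at 6 h rests on the scaling.

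Between 3 h and 12 h of exposure both tub and cact fell in the fit of all arrays. The log2 change from 3 h to 12 h was −0.29 ± 0.08 for tub (95% CI −0.48 to −0.10, adjusted p = 0.0447) and −0.31 ± 0.08 for cact (95% CI −0.50 to −0.11, adjusted p = 0.0424). These were 2 of the 7 members, where 16.1% of all genes passed in this comparison. Both values lie just under the threshold, and of 18 alternatives cact passed in 5 and tub in 6, with adjusted p from 0.0302 to 1.00 and from 0.0294 to 1.00. Leaving out either DMSO array, either 3 h array or 12 h replicate 1 ended both calls, with adjusted p of 0.0753, 0.0748, 0.137, 0.176 and 0.108 for cact and 0.0826, 0.0826, 0.0976, 0.216 and 0.143 for tub, and leaving out 12 h replicate 2 ended the call of cact (adjusted p = 0.0726). From 6 h to 12 h no gene of the 7 passed by its brighter probe set, against 14.1% of all genes, and from 3 h to 6 h none passed, against 0.0728%. At an unadjusted p under 0.05, limma counted 3 of 7 members from 3 h to 12 h (30.7% of all genes), 3 from 6 h to 12 h (29%) and 0 from 3 h to 6 h (12.1%).

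For pll, the kinase gene of the Toll pathway, the array holds 2 probe sets that disagreed. The brighter one gave 965 and 975 in DMSO, 895 and 872 at 3 h, 1029 and 985 at 6 h, then 977 and 922 at 12 h. Its log2 changes of −0.13 (95% CI −0.32 to 0.06), 0.05 and −0.03 (95% CI −0.22 to 0.16) did not pass, with adjusted p of 0.331, 0.748 and 0.877. The dimmer one gave 83.8 and 72.5 in DMSO, 101 and 142 at 3 h, 131 on the 1 readable array at 6 h, then 22.7 and 23.7 at 12 h. Its 12 h arrays lay far below all others and under the signal of the filter. Against DMSO it did not pass at 12 h, with a log2 change of −1.10 ± 0.32 (95% CI −1.83 to −0.36, adjusted p = 0.0882). It fell after the early times, with log2 changes of −1.59 ± 0.32 (SE, adjusted p = 0.0134) from 3 h to 12 h and −1.70 ± 0.39 (adjusted p = 0.0256) from 6 h to 12 h. Without 3 h replicate 1 or 2 the first of these gave adjusted p of 0.0514 and 0.106, and without 3 h replicate 2 the other gave 0.0501. The 6 h to 12 h call was also lost with quantile normalization (adjusted p = 0.0575) and with the 2 groups alone (adjusted p = 0.140). This probe set entered the test through its 3 h arrays, since its mean log2 value without them was 6.37, under the filter at 6.44. In the fit with no filter the 2 adjusted p were 0.0244 and 0.0438. Which transcripts of pll each probe set detects was not tested, and the gene is counted by its brighter probe set.

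Of the NF-κB factor genes of the Toll pathway, dl was dim on every array. Its signals were 11.2 and 3.90 in DMSO, 28.1 and 18.01 at 3 h, 6.26 and 4.67 at 6 h, then 3.15 and 6.59 at 12 h. Both 3 h arrays exceeded the rest, but all 8 values lie well below the signal of the filter, and in the fit with no filter the log2 change at 3 h was 0.56 (adjusted p = 0.0961). Dif, the factor that acts with Dorsal in immunity, was dim as well, with 85.0 and 121 in DMSO, 79.3 and 73.5 at 3 h, 79.5 and 86.1 at 6 h, then 68.9 and 97.8 at 12 h. Its 3 h arrays lay below both DMSO arrays, and its 6 h and 12 h arrays overlapped them. Its log2 changes were −0.32 (95% CI −0.99 to 0.34, adjusted p = 0.505), −0.24 (adjusted p = 0.661) and −0.24 (adjusted p = 0.692) at the 3 times. These wide intervals include both a fall and a rise of Dif.

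In the Imd pathway the adaptor gene imd was also dim. Its brighter probe set gave 111 and 100.5 in DMSO, 108 and 63.7 at 3 h, 81.9 and 81.5 at 6 h, then 129 and 103 at 12 h. Its 3 h arrays spread from below both 6 h arrays to within the range of DMSO, and the log2 changes of −0.26 (95% CI −0.92 to 0.39), −0.29 and 0.10 did not pass, with adjusted p of 0.594, 0.566 and 0.882. The dimmer imd probe set stayed between 4.29 and 34.9 on all readable arrays. Key, the regulatory subunit of the fly IκB kinase, gave 409 and 551 in DMSO, 519 and 399 at 3 h, 471 on the 1 readable array at 6 h, then 448 and 374 at 12 h. Every JH III group overlapped the 2 DMSO arrays of key, and its log2 changes of −0.06 (95% CI −0.50 to 0.38), −0.01 and −0.20 had adjusted p of 0.874, 0.979 and 0.587.

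Rel encodes the NF-κB precursor at the end of the Imd pathway. Its signals were 682 and 689 in DMSO, 546 and 528 at 3 h, 599.5 and 542 at 6 h, then 457 and 399 at 12 h. As group means this was 686 ± 5.30 (SD, n = 2) in DMSO, 537 ± 12.5 at 3 h, 571 ± 41.0 at 6 h and 428 ± 40.5 at 12 h. The 12 h arrays were the lowest of the 8 and did not overlap any other group, while the 3 h and 6 h arrays overlapped each other. At 12 h the log2 change was −0.65 ± 0.12 (SE, 95% CI −0.91 to −0.39, adjusted p = 0.0155), a level 0.636 times that of DMSO. At 3 h it was −0.34 ± 0.12 (95% CI −0.60 to −0.08, adjusted p = 0.0747) and at 6 h −0.26 ± 0.12 (95% CI −0.52 to 0.01, adjusted p = 0.183). Neither passed the threshold adjusted over all probe sets. From 3 h to 12 h the log2 change was −0.31 (adjusted p = 0.101) and from 6 h to 12 h −0.40 (adjusted p = 0.0521), so a further fall after 3 h or 6 h was not established.

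**Figure D2:**
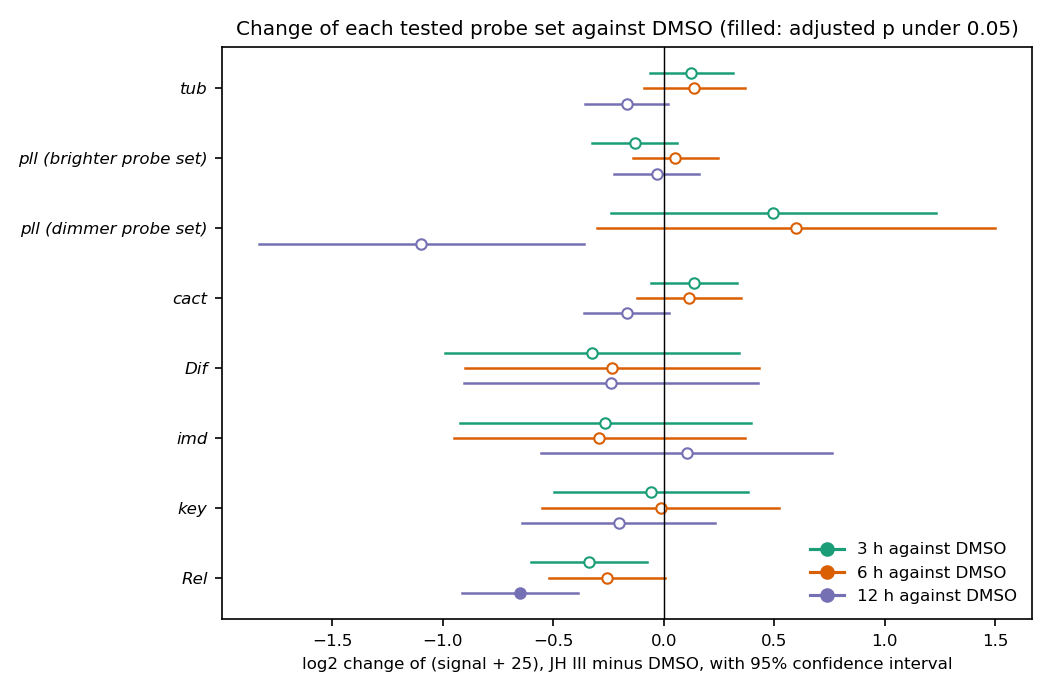
Log2 change of (signal + 25) against DMSO at 3, 6 and 12 h for the 8 tested probe sets of the 7 genes, with 95% confidence intervals from limma. Filled points passed an adjusted p under 0.05, which held for Rel at 12 h (−0.65) and for no other point.

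The direction of Rel at 12 h was negative in all 19 alternatives, from −0.78 to −0.56, and its adjusted p ranged from 0.00873 to 0.219 and passed in 13 of them. Leaving out DMSO replicate 1, the array with the embryo label, gave −0.66 (adjusted p = 0.107). The values were −0.64 (adjusted p = 0.116) without DMSO replicate 2 and −0.56 (adjusted p = 0.0571) without 12 h replicate 2. With each array centred on its median, Rel passed at all 3 times, with −0.50 at 3 h (adjusted p = 0.0172), −0.42 at 6 h (adjusted p = 0.0429) and −0.78 at 12 h (adjusted p = 0.00873). Centring also called 17.6%, 14.3% and 8.99% of all genes lower at these times. With quantile normalization Rel passed at no time, with −0.39 at 3 h (adjusted p = 0.249), −0.06 at 6 h (0.894) and −0.62 at 12 h (0.171). The 12 h call was also lost without the variance trend (adjusted p = 0.0762) and with unreadable zeros kept as values (0.219). Over the 4 groups together, an F test of the spread between groups over limma's moderated variance passed for Rel (adjusted p = 0.0179). It also passed for the dimmer pll probe set (adjusted p = 0.0236). That probe set entered the test through its 3 h arrays, and no F test was run without the filter. The share of all tested probe sets that pass this F test is not given here. These results are therefore not set against a background and are not read as a property of the members. The F test did not pass for tub (0.0823), cact (0.0894), the brighter pll probe set (0.387), imd (0.604), key (0.799) or Dif (0.80).

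Several array-wide measures moved with time and stand beside these values. The arrays shared a trimmed mean of 500.1, yet their median log2 values lay above DMSO by 0.16, 0.16 and 0.13 at 3, 6 and 12 h. Centring on medians therefore moved the split of all genes from 9.91% higher and 8.8% lower to 5.46% and 17.6% at 3 h, and to 3.73% and 14.3% at 6 h and 2.16% and 8.99% at 12 h. At 12 h, where Rel passed, the 9 hybridization controls were higher than in DMSO by 0.53 in log2. The Gapdh controls were lower, at −0.60. The 3′ to 5′ differences of actin, Gapdh and eIF4A changed by 0.20, 0.01 and 0.17 at 12 h. They changed by 0.19, −0.03 and 0.29 at 3 h and by 0.19, 0.06 and 0.07 at 6 h. The part of these measures in the value of Rel was not tested. On 6 h replicate 2, 22.5% of the values were unreadable and were treated as missing, which left tub, cact, key and the dimmer pll and imd probe sets with 1 array there. Of 13 hemocyte markers with a probe set 9 passed the filter, among them Hml, Pxn and srp, while NimC1, eater, Sr-CI and gcm did not. Markers of other cell types passed for 1 of 3 lamellocyte, 2 of 4 crystal cell, 3 of 6 fat body, 1 of 6 neuronal, 1 of 3 muscle and 2 of 4 germline genes. The summed signal of the hemocyte markers, over 10 probe sets with no missing value, was 10074 to 10280 in DMSO, 14903 to 15170 at 3 h, 13529 to 13905 at 6 h and 9208 to 9789 at 12 h. At 12 h the sums of 3 other lists lay above the range of DMSO: lamellocyte markers at 149.6 to 194.6 against 29.0 to 90.7 (2 probe sets), fat body markers at 425 to 505 against 297 to 316 (4 probe sets) and neuronal markers at 357 to 369 against 261 to 354 (5 probe sets). The sums of the crystal cell, muscle and germline lists overlapped those of DMSO at 12 h. None of the tested markers passed at 12 h, and the part of any marker list in the value of Rel was not tested. In a bulk sample, fewer cells with a transcript and less of it per cell cannot be told apart.

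**Figure D3:**
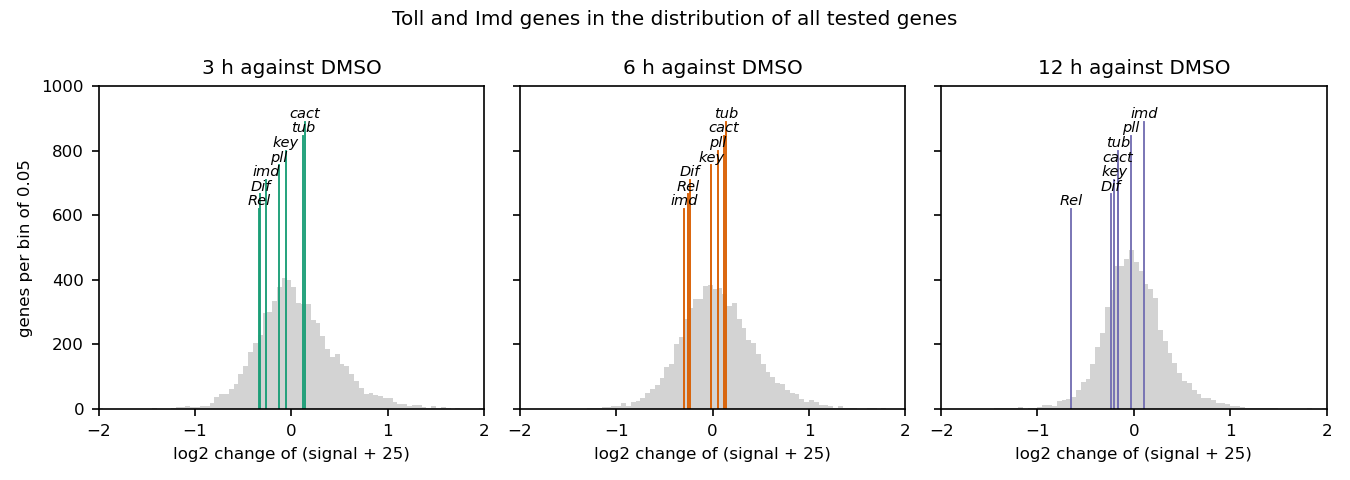
Distribution of the log2 change against DMSO over the 6865 tested genes (grey, genes per bin, values beyond 2 placed in the end bins) with the 7 tested members as vertical lines whose height carries no value. At 12 h Rel (−0.65) lies in the left tail, and the other members lie between −0.32 and 0.14 at all 3 times.

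As a description of which genes ran most like the members that passed in any comparison, the log2 values were correlated over the arrays. For Rel the closest were Pdi, a protein disulphide isomerase gene (r = 0.990 over 8 arrays), and Incenp, a gene of the chromosomal passenger complex (r = 0.989 over 7 arrays). For cact they were Kat60, a microtubule-severing katanin (r = 0.987), and CG5399 (r = 0.986), and for tub CG6664 and CG42542 (both r = 0.974), each over 7 arrays. The arrays fall into 4 groups of 2, so many genes share such a course: 84 genes had r over 0.9 with Rel, 152 with cact and 103 with tub.

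Among the other listed genes of both pathways, most of those that passed at 3 h and 6 h rose. Of 116 other pathway genes in 6 lists, 80 had a probe set and 54 were tested. At 3 h 12 of these were higher and 1 was lower, at 6 h 9 were higher and 0 lower, and at 12 h 2 were higher and 1 lower. As shares of the 54 tested this was 22.2% higher and 1.85% lower at 3 h, 16.7% and 0% at 6 h, then 3.7% and 1.85% at 12 h. Over all tested genes these shares were 9.91% and 8.8%, 6.74% and 6.7%, and 3.28% and 2.77%, so the 12 h count is near the background. The lists were chosen with earlier results of these data known. These shares, and those of each list below, are therefore a description and do not test for an excess over all genes. The 6 h count also includes cad, which entered the test through its 6 h arrays. The lists' median log2 changes were 0.25, 0.19 and −0.03, beside 0.01, 0.04 and −0.01 for all genes. The count of 13 at 3 h fell to 4 without DMSO replicate 1, 6 without DMSO replicate 2, 4 without 3 h replicate 1 and 7 without 3 h replicate 2. That of 9 at 6 h fell to 3 without DMSO replicate 1, 2 without DMSO replicate 2 and 3 of 32 genes without 6 h replicate 1. That of 3 at 12 h fell to 1, 0, 1 and 1 without DMSO replicate 1, DMSO replicate 2, 3 h replicate 1 and 3 h replicate 2. Centring on medians gave 7 higher and 1 lower at 3 h, 4 and 1 at 6 h, then 1 and 3 at 12 h, with medians of 0.09, 0.03 and −0.15, where the medians of all genes became −0.15, −0.12 and −0.13. Of the 9 tested hemocyte markers 6 rose at 3 h, 3 at 6 h and 0 at 12 h, and their part in these counts was not tested.

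Upstream of Toll, 11 of 23 listed extracellular genes were tested. At 3 h 1 was higher (9.09%, against 9.91% of all genes) and 0 lower (against 8.8%). At 6 h 0 passed, against 13.4% of all genes. At 12 h 1 was lower (9.09%, against 2.77% of all genes) and 0 higher (against 3.28%). The ligand gene spz gave 1201 and 1205 in DMSO, 2009 and 1857 at 3 h, 1640.4 on the 1 readable array at 6 h, then 1096 and 841 at 12 h. The 3 h arrays stood above all others and the 12 h arrays below all others. At 3 h spz rose by 0.67 ± 0.12 (SE) in log2 (adjusted p = 0.0082), and at 6 h and 12 h its changes of 0.44 and −0.32 did not pass (adjusted p = 0.0958 and 0.177). Its 3 h call was lost without DMSO replicate 1, DMSO replicate 2 or 3 h replicate 1, where the highest adjusted p was 0.0619, and without the variance trend (0.0545). Spz6, a relative of the ligand, was 129 and 131 in DMSO, 119 and 112 at 3 h, 108 on the 1 readable array at 6 h, then 37.7 and 28.0 at 12 h. It fell at 12 h, with a log2 change of −1.43 ± 0.28 (adjusted p = 0.0275), to signals under the filter. That call was lost without either DMSO array, either 3 h array or 12 h replicate 2 (adjusted p up to 0.166 with 1 array left out), and with quantile normalization (0.076), no filter (0.0543) and the 2 groups alone (0.0695). None of the 3 tested genes for other Toll receptors (Tehao, Tollo and Toll-7) passed against DMSO. Of all genes 18.7%, 13.4% and 6.05% passed at 3, 6 and 12 h.

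Among genes that act inside the cell on the Toll route, 15 of 16 were tested, and 5 rose at 3 h, 3 at 6 h and 0 at 12 h, with none lower. The shares of all genes that were higher were 9.91%, 6.74% and 3.28%. The genes that rose include regulators of both signs and kinases with wide roles elsewhere. Ulp1, a protease that removes SUMO and restrains Toll signalling, rose by 0.63 ± 0.12 at 3 h (adjusted p = 0.00649) and 0.73 ± 0.12 at 6 h (adjusted p = 0.00461). Mop (myopic), an endosomal protein that aids Toll signalling, rose by 0.60 ± 0.12 at 3 h (adjusted p = 0.00956) and 0.63 ± 0.12 at 6 h (adjusted p = 0.0101). Its other probe set that passed the filter gave 0.36 and 0.82 and did not pass (adjusted p = 0.467 and 0.189). The kinase genes aPKC, better known for cell polarity, and Doa, which acts on splicing factors, rose early, by 0.73 ± 0.18 (adjusted p = 0.0219) and 0.50 ± 0.10 (adjusted p = 0.0132), at 3 h, and so did the ubiquitin ligase gene Pli, by 0.63 ± 0.14 (adjusted p = 0.017). Doa also rose at 6 h, by 0.56 (adjusted p = 0.0244). Myd88, the adaptor that binds Tube, gave 0.15, 0.29 and −0.04 and did not pass (adjusted p = 0.392, 0.207 and 0.887). With quantile normalization 0 of these 15 genes passed at 3 h, and with centring 3 did, when aPKC (0.0595) and Doa (0.0548) were lost. The 6 h call of Doa rests wholly on 6 h replicate 1, its 1 readable array there. Each 3 h call depended on single arrays. That of Ulp1 was lost without 3 h replicate 1 (adjusted p = 0.0566) and that of Doa without either DMSO array or 3 h replicate 1 (up to 0.098). Those of mop, aPKC and Pli were lost without any one of the DMSO and 3 h arrays (up to 0.063, 0.11 and 0.104). At 6 h Ulp1 passed with each of the 8 arrays left out in turn, mop was lost without either DMSO array or 6 h replicate 2 (up to 0.0685) and Doa without either DMSO array (up to 0.106). The 6 h call of Doa was also lost with quantile normalization (0.134), centring (0.0573), no variance trend (0.0756) and the replicate block (0.0548).

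Intracellular Imd genes were tested for 17 of 21 listed, and 6 were higher and 1 lower at 3 h, 5 and 0 at 6 h, then 2 and 0 at 12 h. Over all genes 9.91% were higher and 8.8% lower at 3 h, 6.74% and 6.7% at 6 h, then 3.28% and 2.77% at 12 h. The smallest adjusted p of the pathway lists was that of akirin, whose nuclear protein works with Relish at a subset of its target genes. Its signals were 2544 and 2201 in DMSO, 5460.4 and 5522 at 3 h, 5037 on the 1 readable array at 6 h, then 4028 and 3580.3 at 12 h. Every JH III array lay above both controls, and the groups followed the order 3 h, 6 h, 12 h, DMSO without overlap. It rose by 1.21 ± 0.09 at 3 h (2.31-fold, adjusted p = 0.000316), 1.08 ± 0.11 at 6 h (adjusted p = 0.00127) and 0.68 ± 0.09 at 12 h (adjusted p = 0.00583). The 3 h call held with any array left out. At 6 h the call rests on 6 h replicate 1, which could not be left out, and it held without any other array. The 12 h call did not hold without DMSO replicate 2 or without the variance trend (adjusted p = 0.103). Thus akirin was higher and Rel lower at 12 h, in the same arrays.

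Among the other Imd genes, ben, the conjugating enzyme that builds the ubiquitin chains used by the pathway, rose by 0.68 ± 0.07 at 3 h (adjusted p = 0.000785), 0.42 at 6 h (adjusted p = 0.0156) and 0.29 at 12 h (adjusted p = 0.0461). Usp2, a deubiquitinase that limits Imd signalling, rose by 0.81 ± 0.09 at 3 h (adjusted p = 0.0012) and 0.55 at 6 h (adjusted p = 0.0179). Both 3 h calls held with any array left out. At 6 h the call of Usp2 needed DMSO replicate 2 (adjusted p = 0.106 without it), ben was lost without either DMSO array (up to 0.0827), and its 12 h call was lost without any one of the DMSO, 3 h and 12 h arrays (up to 0.225). Tab2, the partner of the Tak1 kinase, rose by 0.39 ± 0.11 at 3 h (adjusted p = 0.0419) and 0.56 at 6 h (adjusted p = 0.0303), and both calls were lost without any one of the DMSO and 3 h arrays (up to 0.237 and 0.133). The 6 h values of Usp2, ben and Tab2 come from 6 h replicate 1 alone. Their 6 h calls rest wholly on that array, which could not be left out. Other scalings ended calls as well. With quantile normalization and median centring, the adjusted p at 6 h was 0.107 and 0.0532 for Usp2, 0.0501 and 0.0671 for ben, and 0.113 and 0.0646 for Tab2. In the same settings ben at 12 h had 0.214 and 0.196 and Tab2 at 3 h 0.165 and 0.182. Without the variance trend the 5 calls were lost too, at 0.0716, 0.0951, 0.0998, 0.189 and 0.112 in that order. The replicate block ended the calls of ben at 12 h (0.0799) and Tab2 at 3 h (0.0586). With no filter the calls of ben at 12 h (0.0636) and of Tab2 at 3 h (0.0689) and 6 h (0.0520) were lost. The fit of 2 groups alone ended that of ben at 12 h (0.0842). In all, ben at 12 h passed in 5 of 18 alternatives, and Tab2 in 8 of 18 at 3 h and 8 of 17 at 6 h.

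Cad, a homeobox gene whose protein holds back antimicrobial genes in the fly gut, had signals of 18.8 and 26.9 in DMSO, 67.2 and 69.9 at 3 h, 146 and 98.4 at 6 h, then 85.4 and 67.2 at 12 h. It was under the signal of the filter in DMSO only, and its mean log2 value of 6.49, against 6.44 at the filter, was 6.26 without the 6 h arrays. It thus entered the test through the group in which it was highest, and the 6 h counts of 9 and 5 genes include it. In the fit with no filter its log2 change at 6 h was 1.61 (adjusted p = 0.0214). With the filter, the call was lost without either DMSO array or 6 h replicate 1 (adjusted p up to 0.0931). Outside the naming rule, and picked after their values were seen, Diap2, the ubiquitin ligase of the Imd pathway, fell at 3 h (log2 change −0.55, adjusted p = 0.00603), and Uev1A, the partner of ben, and Chro, a chromosomal and spindle protein, rose by 0.35 (adjusted p = 0.013) and 0.25 (adjusted p = 0.0457). The tested genes Dredd, Fadd and IKKbeta, the core caspase, adaptor and kinase, did not pass at any time. None of the 3 tested genes for other peptidoglycan receptors and their modulators (PGRP-LE, PGRP-LB and PGRP-SC2) passed against DMSO. Of all genes 18.7%, 13.4% and 6.05% did at 3, 6 and 12 h.

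**Figure D4:**
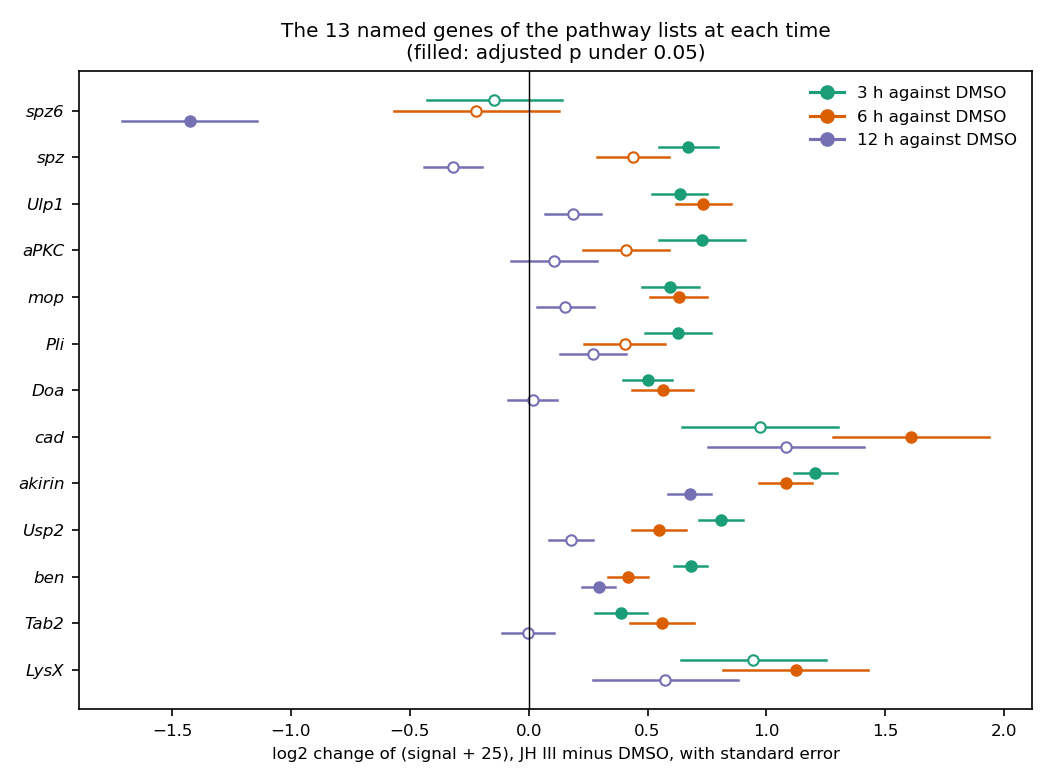
Log2 change of (signal + 25) against DMSO at 3, 6 and 12 h for 13 genes of the pathway lists, with standard errors from limma. Filled points passed an adjusted p under 0.05. Filled at all 3 times are akirin, from 1.21 at 3 h to 0.68 at 12 h, and ben, from 0.68 at 3 h to 0.29 at 12 h. At 12 h spz6 is filled on the negative side (−1.43).

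The antimicrobial peptide genes, the usual readout of both pathways, were mostly dim. Of 39 listed effectors 16 had a probe set, and 11 of these lay under the filter, with signals between 2.80 and 73.1 on all readable arrays. They include Drs, the standard target of Toll, at 8.10 to 54.9, and the genes Def, AttD, CecB, Mtk and Listericin. DptB, a diptericin gene and a target of the Imd pathway, was brighter, with signals from 255 to 492, and its log2 changes of 0.34, 0.14 and −0.07 did not pass (adjusted p = 0.351, 0.75 and 0.906). Among the 5 tested effectors only the lysozyme gene LysX passed, at 6 h, where 6.74% of all genes were higher. It rose by 1.12 ± 0.30 (adjusted p = 0.0409). That call was lost without either DMSO array, either 3 h array or 6 h replicate 2 (up to 0.196), and under quantile normalization, median centring, no filter, no variance trend, the replicate block and the 2 groups alone (adjusted p from 0.0508 to 0.111). In the fit with no filter, limma called 0 of the 11 dim genes at each of the 3 times. None reached an unadjusted p under 0.05, and the lowest adjusted p was 0.261. With the filter, 18.7%, 13.4% and 6.05% of all tested genes passed at these times, but those genes are brighter. The added constant of 25 understates changes at such low signals, so the counts do not show that the dim genes were unchanged.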

How the data were processed

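Signals of 8 arrays were compared, 2 in each of 4 groups. The authors deposited 1 linear intensity, the MAS5 signal, for each probe set of each array, per the submitters' processing notes (version not given), and the 7 intact arrays share a trimmed mean of 500.1. With 2 arrays a group, precision is limited by their number. Values were transformed to log2(signal + 25), which understates changes of dim genes. The 44 array controls and probe sets with a mean under the 40th percentile were left out, which kept 8380 probe sets. The 3151 unreadable values of JH III 6 h replicate 2 (zeros, and 5 impossible values) were treated as missing. For the 2611 tested probe sets with 1 readable array at 6 h, that array is assumed to vary like the other groups. Group means were fitted over all 8 arrays with limma 3.58.1 in R 4.3.3 (eBayes with a variance trend, two-sided moderated tests). The p-values were adjusted by Benjamini-Hochberg over all tested probe sets, with a threshold of 0.05.

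Probe sets were named from the array annotation, with symbols updated to RefSeq, and a gene is represented by its brightest probe set with 1 symbol. All members are named. From each pathway list the text names at most 5 genes that passed against DMSO, by largest change, and for each member that passed in any comparison the 2 genes of highest correlation. The members and lists were chosen with earlier results of these data known. Replicate numbers did not pair the arrays: deviations from group means correlated at −0.05 to 0.07 between groups. The fit was tested on simulated data. Alternatives were other scalings, constants, filters, variance models, a replicate block, other treatments of the unreadable values, fits of 2 groups alone and leaving out each array. Promoter, probe and protein sequences were not used here.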

Additional observations from a re-analysis of the deposited data

How the results depend on the processing

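Of 1552 single values for members and named genes under the alternatives, 1380 kept their side of the threshold, 41 of them with another sign and past the threshold under neither setting. Another 151 lost the call, 16 gained it and 5 reversed. The reversed ones arose at 6 h with unreadable zeros kept as values, by the construction of that setting, and were Doa (−2.10), akirin (−2.75), Usp2 (−2.20), ben (−2.86) and Tab2 (−2.29). Elsewhere the cause was not tested. Members called at 3 h against DMSO, 0 as reported, were 2 with median centring and 1 with the 2 groups alone. At 6 h, 0 became 1 with median centring. Centring called these members lower, and it called 17.6% of all genes lower at 3 h and 14.3% at 6 h. At 12 h, 1 became 0 with quantile normalization, no variance trend or zeros kept, and 0 to 1 with 1 array left out. From 3 h to 12 h, 2 became 0 with quantile normalization, median centring, no filter, no variance trend, the replicate block, zeros kept or the 2 groups alone, and 0 to 2 with 1 array left out. It was also 0 on probe sets readable on all arrays, but by construction, since cact and tub lack a value on 1 array and are not in that fit. From 6 h to 12 h, 0 became 1 with the 60th percentile filter or any probe set of a gene, and 0 to 1 with 1 array left out. The replicate block gave adjusted p of 0.0682 for cact and 0.0544 for tub from 3 h to 12 h, and the numbers did not pair the arrays. Pathway genes called at 3 h, 13 as reported, were 6 with quantile normalization, 8 with median centring, 4 on probe sets readable on all arrays, 0 with zeros kept and 4 to 14 with 1 array left out. At 6 h, 9 became 5, 5, 4 and 0 under the same settings, 4 without a variance trend and 2 to 11 with 1 array left out. At 12 h, 3 became 1 with quantile normalization, no filter, no variance trend or the 2 groups alone, 0 with probe sets that lack no value (by construction) or with zeros kept, and 0 to 4 with 1 array left out. Of the genes called in the lists at 3, 6 and 12 h, only 5, 4 and 0 are readable on all arrays, so the counts of 4, 4 and 0 in that fit follow mostly from the smaller set of genes. Over all genes the share called at 12 h was 6.05%, against 1.27% with quantile normalization and 0.408% without a variance trend. Without 6 h replicate 1, genes unreadable on 6 h replicate 2 have no 6 h value. Levels near the filter (Dif, Tl and the brighter imd probe set) or well below it (dl and the dimmer imd probe set) limit what could be seen. The search for motifs in promoters was not run.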
